A study of Sus scrofa with 20 samples.

Results

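The cytochrome P450 enzymes of the CYP2B, CYP2C, CYP2D and CYP3A subfamilies were examined in testis and liver of boars with divergent androstenone levels. A total of 7 pig genes were listed by name, namely CYP2B22, CYP2C33, CYP2C49, CYP2D25, CYP3A29, CYP3A39 and CYP3A46. Each name was looked up among the 21755 reference sequences on which reads had been counted. It resolved to a single sequence for 4 of them, CYP2B22 (NM_214413.1), CYP2C33 (NM_214414.1), CYP2C49 (NM_214420.1) and CYP2D25 (NM_214394.1). The 3 CYP3A names matched no sequence and were not analysed here. RefSeq gives CYP3A39 as an older name of CYP3A46.

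Cytochromes P450 are haem enzymes of the endoplasmic reticulum that insert oxygen into drugs, steroids and other lipid-soluble compounds. They are most abundant in hepatocytes, where they receive electrons from cytochrome P450 reductase and, for some reactions, from cytochrome b5. Transcription of the CYP2B, CYP2C and CYP3A genes in liver responds to foreign compounds and steroids through the nuclear receptors PXR (gene NR1I2) and CAR (NR1I3), and it requires liver factors such as HNF4A. Androstenone is a steroid made by the Leydig cells of the testis, cleared through the liver and stored in fat, where it contributes to boar taint.

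RNA came from testis and liver of 10 boars, 5 with low and 5 with high androstenone, which gave 4 groups of 5 samples. All animals were from a Duroc x F2 cross, in which the F2 came from Leicoma x German Landrace F1 animals and Large White. They were slaughtered at 116 day of age on average, and both tissues were frozen at slaughter. The groups were extremes chosen by androstenone measured in neck fat, so they were formed by a measured trait and not by an applied agent. In its association model the study fitted pen (group or individual) and slaughter age as effects on androstenone. Whether the groups here differed in either is not given. Total counts were between 6161397 and 15975386 in testis and between 5796973 and 26783002 in liver. Levels are given as counts per 1000000 (CPM). A reading of 3 counts was taken as the limit of what can be separated from 0, which is 0.188 to 0.487 CPM depending on the testis sample and 0.112 to 0.518 CPM depending on the liver sample, for counting error only. Each gene below is given in CPM scaled within its tissue by the TMM method, as mean ± SD. No transcript lengths were used, so levels are compared between samples and not between genes. The tissue labels were checked against marker genes. The summed CPM of 5 hepatocyte markers was 71025 or more in every liver and 169 or less in every testis, whereas that of 4 Leydig cell markers was 998 or more in every testis and 15.9 or less in every liver. None of these markers was at 0 in all samples of a group. In whole tissue, fewer cells of a type and less RNA per cell cannot be told apart.

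All 4 P450 genes were higher in liver than in testis, and the lowest liver lay above the highest testis for each of them. Of all 19065 reference sequences tested, 15.3% had every liver above every testis, 75.7% were called in either direction and 32.2% were called higher in liver. The differences ranged from 24.4-fold for CYP2D25 to 10813-fold for CYP2C33 with TMM factors estimated over all 20 samples. These factors were 1.27 to 1.45 in testis and 0.515 to 0.876 in liver, so the folds are larger than ratios of the CPM below, which were scaled within each tissue. With scaling by total counts alone, an alternative chosen after the data were seen, the folds ranged from 12.2 for CYP2D25 to 5319 for CYP2C33 and all 4 calls were kept. The size of each difference therefore depends on the scaling by about a factor of 2. All log2 differences, standard errors and adjusted p-values below came from edgeR's quasi-likelihood test with Benjamini-Hochberg adjustment over all tested sequences. A gene was called at an adjusted p under 0.05 with a fold change of at least 1.5.

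CYP2C33, a member of the drug- and steroid-hydroxylating CYP2C subfamily, ranged from 1130 to 8671 CPM over the 10 livers and from 0.149 to 2.98 CPM over the 10 testes. The log2 difference between the tissues was 13.40 (SE 0.62, adjusted p = 3.8e-16), a fold of 10813 with a 95% interval from 4444 to 26314. CYP2C49, of the same subfamily, ranged from 666 to 4345 CPM in liver and from 0.840 to 2.83 CPM in testis. Its log2 difference was 10.98 (SE 0.46, adjusted p = 6.1e-17), or 2017-fold with an interval from 1041 to 3911. Scaled by total counts alone, the folds were 5319 for CYP2C33 and 953 for CYP2C49. Thus the testis held both CYP2C sequences at a few CPM or less.

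CYP2B22 belongs to the CYP2B subfamily, known for its induction by phenobarbital. It ranged from 2.74 to 102 CPM in liver and from 0 to 1.65 CPM in testis, with no count in 2 testes. The log2 difference was 7.90 (SE 0.63, adjusted p = 1.7e-11), or 238-fold with an interval from 97.4 to 583, and 121-fold with scaling by total counts alone. CYP2D25, which in the pig hydroxylates vitamin D at the carbon-25 position, was the member with the smallest difference. Its range was 660.3 to 2689 CPM in liver and 77.5 to 215 CPM in testis, a log2 difference of 4.61 (SE 0.31, adjusted p = 5.4e-13) or 24.4-fold with an interval from 15.7 to 37.9, and 12.2-fold with an interval from 8.30 to 17.8 with scaling by total counts alone. Testis CYP2D25 thus rested on between 519 and 3094 counts per sample, whereas the other members had 40 counts or fewer in every testis. All 4 calls were kept in each of the 20 fits that left out 1 sample, with log2 differences from 13.17 to 13.74 for CYP2C33, 10.69 to 11.08 for CYP2C49, 7.61 to 8.14 for CYP2B22 and 4.48 to 4.71 for CYP2D25. The median log2 difference between liver and testis over all tested sequences was -0.31, and -1.28 with scaling by total counts alone. The calls over all sequences split into 6143 higher and 8293 lower in liver, and into 3577 higher and 11348 lower with scaling by total counts alone.

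**Figure D1:**
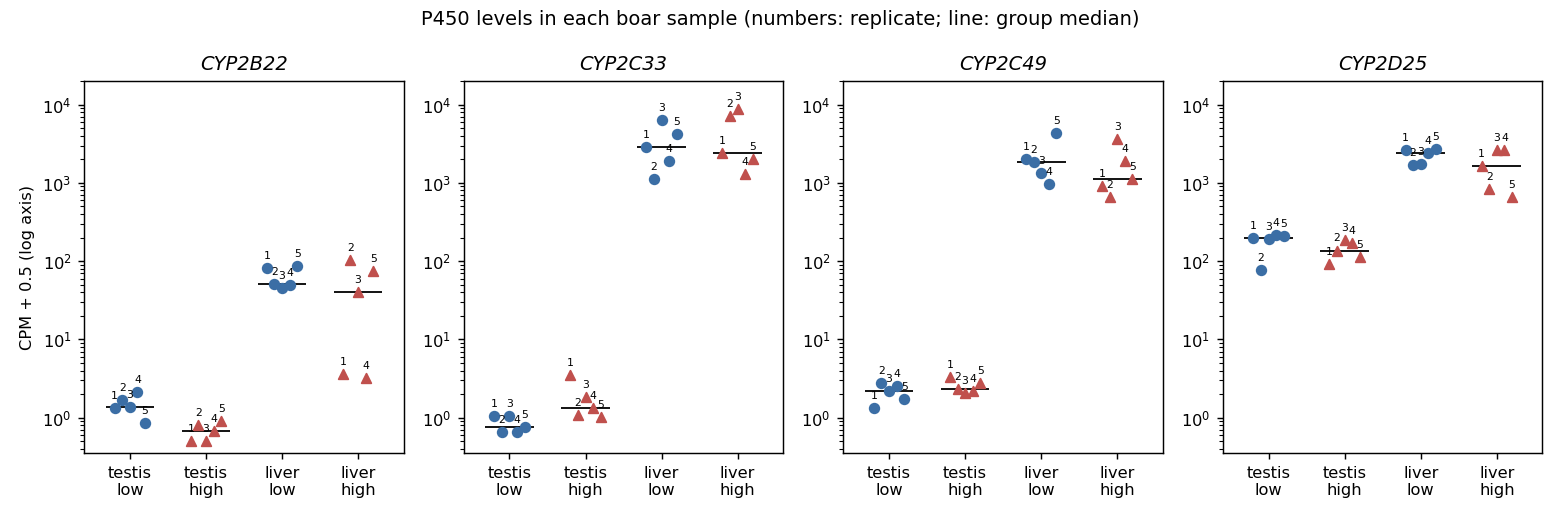
CPM + 0.5 on a log axis of CYP2B22, CYP2C33, CYP2C49 and CYP2D25 in each of the 20 samples, with low androstenone as circles, high androstenone as triangles, replicate numbers above the points and a line at the group median. All livers lie above all testes for each gene, and the livers labelled high replicates 1 and 4 have CYP2B22 at 3.16 and 2.74 CPM while the other livers hold between 39.7 and 102 CPM.

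Hepatocyte transcripts were also read at low levels in testis, so the members were set against albumin (ALB), the main plasma protein made by hepatocytes, within each sample. ALB had between 8 and 588 counts in the testes and between 349118 and 2290810 in the livers. Per 1000 ALB counts, CYP2D25 had between 7.16 and 43.7 counts in the livers and between 2061 and 292625 in the testes. For CYP2C49 the range was 5.70 to 31.9 in the livers and 64.6 to 2125 in the testes. Both were therefore above the whole liver range in 10 of 10 testes. CYP2C33 had between 11.5 and 75.3 counts per 1000 ALB counts in the livers and between 14.7 and 500.0 in the testes, with 5 of 10 testes inside the liver range and 5 above it. CYP2B22 ranged from 0.0458 to 1.24 in the livers and from 0 to 500.0 in the testes, with 8 testes above and the 2 without a count below. These ratios rest on few ALB counts in several testes and cover counting error only in part.

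In testis, the high and low androstenone groups were compared first for the members with the fewest counts. None of the 18340 sequences tested was called by edgeR's quasi-likelihood test (0.0%), while 1740 (9.49%) had an unadjusted p under 0.05 and DESeq2 called 52 (0.284%). None of the 4 P450 genes was among the sequences called by the quasi-likelihood test, and the groups overlapped for all 4, as for all but 1.79% of the tested sequences. With the trended dispersion in place of gene-wise estimates, 225 sequences (1.23%) were called, CYP2B22 and CYP2C33 among them. DESeq2 left both of these genes out of its adjustment, so it could not call them. CYP2B22 and CYP2C33 are members of the list of differentially expressed testis genes that the study drew from these same samples, so their direction here is not independent evidence. The study also measured both genes by quantitative PCR, in the same testes and in testes of other boars. It reported complete concordance of PCR with sequencing in the same samples, and a similar pattern in the other boars.

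CYP2B22 was read 6, 8, 14, 21 and 4 times in the testes labelled low replicates 1 to 5, and 0, 5, 0, 1 and 3 times in the high replicates 1 to 5. The corresponding levels were 0.981 ± 0.481 CPM in the low group and 0.173 ± 0.179 CPM in the high group (SD, n = 5 each). In the low group 4 of 5 samples stood above all high samples, and low replicate 5, at 0.353 CPM, lay below high replicate 5 at 0.402 CPM. On the log2 scale the change, high over low, was -2.42 (SE 0.65, 95% interval -3.80 to -1.03) with an unadjusted p of 0.00203 and an edgeR adjusted p of 0.338, and the exact two-sided permutation test gave p = 0.0159. That test compares the group means of log2(CPM + 0.5), which differed by -1.11, and with 5 samples against 5 it cannot go below 0.00794. The whole low group held 53 counts and the high group 9, and several samples were at or under 3 counts.

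CYP2C33 was read 4, 1, 9, 2 and 3 times in the low testes and 40, 10, 10, 5 and 4 times in the high testes. Levels were 0.337 ± 0.206 CPM in the low and 1.25 ± 1.01 CPM in the high group (SD, n = 5 each). High replicate 1 alone supplied 47.4% of the summed CPM of its group, and the lowest high sample at 0.536 CPM lay within the low range of 0.149 to 0.560 CPM. High over low testes, the log2 fold change was 1.88 (SE 0.56, 95% interval 0.68 to 3.07), with an unadjusted p of 0.00438, an edgeR adjusted p of 0.345 and an exact permutation p of 0.0238. Without high replicate 1 it was 1.20. That same testis had the most ALB, 43.7 CPM, whereas the other testes had between 0.706 and 15.2 CPM. Over the 10 testes CYP2C33 and ALB had a Pearson correlation of 0.641 (permutation p = 0.0459, adjusted over 10 relations 0.229) and a Spearman correlation of 0.479 (permutation p = 0.167, adjusted 0.833). With the 2 samples farthest from the median ALB level left out, r was 0.170, so the relation rests on those samples. In the low and high groups ALB was at 5.77 ± 4.22 and 14.8 ± 17.0 CPM (log2 fold change 1.35, edgeR adjusted p = 0.559), with 0.41 in place of 1.35 without high replicate 1. ALB was 1 of 5 hepatocyte markers, of which 4 were higher and 1 lower in the high testes, with a median log2 fold change of 0.086. Their summed CPM was 60.8 to 169 (median 74.1) in the low and 46.9 to 98.9 (median 84.9) in the high testes, with overlapping groups. Their part in the CYP2C33 values was not tested further. HBB, the beta chain of haemoglobin, was the 1 of 4 listed blood markers whose symbol matched a reference sequence. It ranged from 35.6 to 352 CPM in the low and from 16.5 to 65.2 CPM in the high testes (log2 fold change -1.71, unadjusted p = 0.00482, edgeR adjusted p = 0.354). The study lists HBB and other haemoglobin genes among its testis genes from these same samples, so this direction is not independent evidence. The part of HBB in the CYP2B22 values was not tested.

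**Figure D2:**
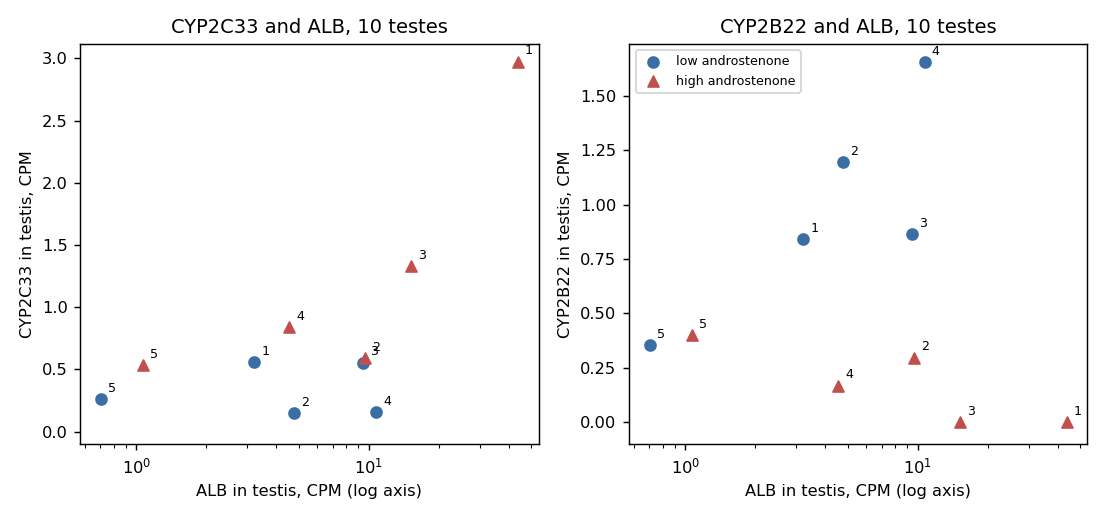
CPM of CYP2C33 (left) and CYP2B22 (right) against CPM of ALB on a log axis in the 10 testes, with low androstenone as circles, high androstenone as triangles and replicate numbers beside the points. The testis labelled high replicate 1 has both the most ALB (43.7 CPM) and the most CYP2C33 (2.98 CPM), and it has no CYP2B22 count.

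CYP2C49 and CYP2D25 differed less between the testis groups. CYP2C49 was at 0.840, 2.24, 1.67, 2.05 and 1.23 CPM in the low and at 2.83, 1.84, 1.60, 1.68 and 2.28 CPM in the high testes, so the ranges were interleaved. Its log2 fold change was 0.36 (SE 0.31, 95% interval -0.29 to 1.01, edgeR adjusted p = 0.728). CYP2D25 was at 199, 77.5, 191, 215 and 206 CPM in the low and at 90.2, 136, 186, 170 and 111 CPM in the high testes. Here 4 of the 5 low samples lay above every high sample, and low replicate 2 lay below all of them. The log2 fold change was -0.36 (SE 0.26, 95% interval -0.92 to 0.20, edgeR adjusted p = 0.680) and -0.54 without low replicate 2. The intervals of both genes include a change of 1.5-fold, CYP2C49 upwards and CYP2D25 downwards, so a change of that size could be neither shown nor set aside for either.

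In liver, none of the 15855 sequences tested was called (0.0%) by edgeR's quasi-likelihood test or by DESeq2, 465 (2.93%) had an unadjusted p under 0.05, and 45 (0.284%) were called with the trended dispersion, none of the 4 P450 genes among them. All 4 P450 genes had overlapping groups, against 0.505% of tested sequences without overlap, and for each the edgeR adjusted p was 0.9998. The counts behind these values were high, from 16 counts for CYP2B22 in 1 liver to 172560 for CYP2C33, so counting error was small beside the spread between boars for all but the lowest CYP2B22 values.

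CYP2B22 was at 80.2, 50.1, 45.1, 49.0 and 87.1 CPM in the low livers and at 3.16, 102, 39.7, 2.74 and 74.5 CPM in the high livers. The low livers lay within a 1.93-fold range, while high replicates 1 and 4, with 47 and 16 counts, stood far below all others and the remaining high livers spanned the low range. The highest and lowest of the 10 livers were 37.4-fold apart. The log2 fold change was -0.49 (SE 0.73, 95% interval -2.04 to 1.06), with -1.05 without high replicate 2 and -0.16 without high replicate 1. The group means of log2(CPM + 0.5), which weigh the low samples more, differed by -1.56, and the exact permutation test of that difference gave p = 0.286. ALB in these high replicates 1 and 4 was at 68962 and 59766 CPM, within the range of 56144 to 159500 CPM of the low livers.

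CYP2C33 was at 2861, 1130, 6311, 1878 and 4262 CPM in the low and at 2380, 7175, 8671, 1292 and 2027 CPM in the high livers. Both groups held livers on either side of the other's median, and the highest was 7.68-fold above the lowest. The log2 fold change was 0.39 (SE 0.57, 95% interval -0.83 to 1.61, exact permutation p = 0.714), with -0.029 when high replicate 3, the deepest library, was left out. CYP2C49 was at 2043, 1839, 1355, 969 and 4345 CPM in the low and at 908, 666, 3672, 1901 and 1129 CPM in the high livers. Its log2 fold change of -0.35 (SE 0.50, 95% interval -1.42 to 0.72, exact permutation p = 0.444) became -0.87 without high replicate 3 and 0.093 without low replicate 5. Thus the sign of both CYP2C differences in liver depended on single boars.

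CYP2D25 was at 2649, 1689, 1726, 2381 and 2689 CPM in the low and at 1649, 838, 2630, 2612 and 660.3 CPM in the high livers. High replicates 1, 2 and 5 were below every low liver, replicate 1 only just (1649 against 1689 CPM). High replicates 3 and 4 matched the upper low livers. The log2 fold change was -0.41 (SE 0.40, 95% interval -1.27 to 0.46, exact permutation p = 0.230), from -0.63 to -0.20 with each liver left out in turn.

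**Figure D3:**
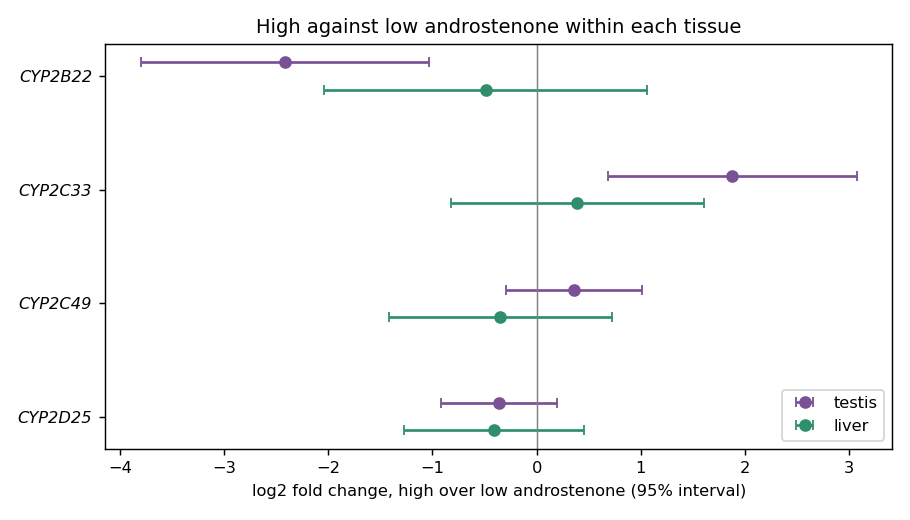
Log2 fold change, high over low androstenone, with its 95% interval from edgeR's quasi-likelihood fit for CYP2B22, CYP2C33, CYP2C49 and CYP2D25 in testis and liver. The testis intervals of CYP2B22 (-3.80 to -1.03) and CYP2C33 (0.68 to 3.07) lie off 0, neither passes the adjusted threshold, and all 4 liver intervals include 0.

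The androstenone difference was also compared between the tissues, as liver minus testis. None of the 19065 sequences was called by edgeR's quasi-likelihood test (0.0%), with 890 (4.67%) at an unadjusted p under 0.05 2 (0.0105%) called by DESeq2 and 46 (0.241%) called with the trended dispersion alone. The log2 interaction was 1.79 (SE 1.21) for CYP2B22, -1.52 (SE 0.89) for CYP2C33, -0.78 (SE 0.65) for CYP2C49 and -0.13 (SE 0.53) for CYP2D25, none of them called. A different response of the P450 genes in the 2 tissues was therefore not shown, and the interval of CYP2B22, from -0.72 to 4.29, is wide.

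The members varied more between boars of a group than most liver transcripts. The SD of log2 CPM within groups was 1.73 for CYP2B22, 1.09 for CYP2C33, 0.89 for CYP2C49 and 0.69 for CYP2D25, and the median over the 5362 liver sequences with a mean of at least 10 CPM was 0.51. The share of these sequences with a smaller SD was 99.6% for CYP2B22, 95.4% for CYP2C33, 89.2% for CYP2C49 and 75.3% for CYP2D25. In testis CYP2D25, the member with enough counts for this comparison, had an SD of 0.53 against a median of 0.31, and 89.7% of 8270 sequences had a smaller one. These shares are descriptions with no test.

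Across the 10 livers, CYP2C49 and CYP2D25 ranked alike, with a Spearman correlation of 0.842 (permutation p = 0.00359, adjusted over 10 relations 0.0359). The Pearson correlation was 0.659 (permutation p = 0.0364, adjusted 0.229), and r was 0.485 without the 2 livers farthest from the median CYP2C49 level. Among other sequences with a symbol and a mean of at least 10 CPM, RNF167 (0.891), ACADS (0.891) and SERPIND1 (0.867) ranked closer to CYP2D25. The closest to CYP2C49 was C3 (0.794). How often pairs of liver sequences reach 0.842 was not tested. CYP2C33 and CYP2C49 had a Spearman correlation of 0.115 (permutation p = 0.758, adjusted 0.947), although they belong to the same subfamily. CYP2C33 and CYP2D25 had one of 0.176 (permutation p = 0.631, adjusted 0.903). The relations of CYP2B22 with the other members were computed and count among the 10. Since 2 livers stood apart from the rest in CYP2B22, these pooled correlations are not given.

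**Figure D4:**
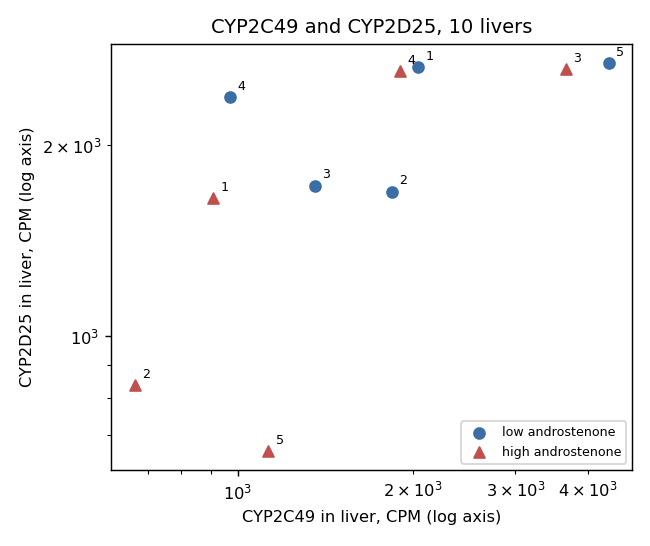
CPM of CYP2D25 against CPM of CYP2C49 on log axes in the 10 livers, with low androstenone as circles, high androstenone as triangles and replicate numbers beside the points. Livers with more CYP2C49 had more CYP2D25 by rank (Spearman 0.842), with the livers labelled high replicates 2 and 5 lowest in CYP2D25 at 838 and 660.3 CPM.

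The genes around these enzymes were described from lists of redox partners and haem synthesis, transcriptional regulators, other P450 genes and conjugating enzymes. Of 18 regulators, 14 matched a reference sequence by symbol. All 14 were called higher in liver than in testis, with a median log2 difference of 6.49. With scaling by total counts alone it was 13 of 14 with a median of 5.58, RXRB being the exception. In the comparison of high with low livers 0 of the 14 were called by edgeR's quasi-likelihood test, and the median log2 fold change was -0.13 against 0.014 over all tested sequences. An unadjusted p under 0.05 was reached by 3 of the 14, all lower in the high group, which held for 1.69% of all tested sequences. With scaling by total counts alone it was 2 of the 14. By sign alone, 6 were higher and 8 lower in the high livers, or 5 and 9 with scaling by total counts alone. In the testes 13 regulators were tested, with 0 called and a median of 0.17 against -0.017 over all.

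NR1I2, which encodes the xenobiotic receptor PXR, was at 56.5, 58.4, 63.8, 73.0 and 57.6 CPM in the low livers and at 47.7, 36.4, 42.6, 31.7 and 46.6 CPM in the high livers. The groups did not overlap, which held with the high group below the low group for 0.328% of the tested sequences. In liver NR1I2 had a log2 fold change of -0.59 (SE 0.23, unadjusted p = 0.0223, edgeR adjusted p = 0.9998) and an exact permutation p of 0.00794, the smallest possible. HNF4A was at 20.5 ± 2.28 CPM in the low and 14.5 ± 2.17 CPM in the high livers (SD, n = 5 each), again without overlap, since the lowest low liver had 17.5 and the highest high liver 17.4 CPM. Its log2 fold change was -0.50 (SE 0.23, unadjusted p = 0.0438, edgeR adjusted p = 0.9998, exact permutation p = 0.00794). The separation of both genes was lost when CPM were scaled by total counts alone, with exact permutation p-values of 0.0397 for NR1I2 and 0.0317 for HNF4A. NR1I3, which encodes CAR, was at 27.5 ± 5.02 CPM in the low and 15.5 ± 5.84 CPM in the high livers. High replicate 4 lay inside the low range, and the log2 fold change was -0.83 (SE 0.28, unadjusted p = 0.0107, edgeR adjusted p = 0.9998, exact permutation p = 0.0238). None of the 3 was called.

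Of 8 genes for redox partners and haem synthesis, 5 matched a reference sequence by symbol. Cytochrome P450 reductase (POR) was not analysed here. CYB5A, cytochrome b5, was at 1088 ± 326 CPM in the low and 936 ± 581 CPM in the high livers (log2 fold change -0.22, SE 0.41, edgeR adjusted p = 0.9998). In the testes it was at 1104 ± 365 CPM in the low and 1728 ± 888 CPM in the high group, with overlapping groups. Its log2 fold change there was 0.65 (SE 0.35, edgeR adjusted p = 0.569, exact permutation p = 0.294). No difference between the tissues was called, and its direction turned with the scaling, with a log2 difference, liver over testis, of 0.53 (SE 0.30, edgeR adjusted p = 0.109) under TMM and -0.52 (SE 0.27, adjusted p = 0.0789) with scaling by total counts alone. Of the 5 genes, 2 were called higher in liver than in testis, ALAS1 and PGRMC1, and 0 lower, or 2 higher and 2 lower with scaling by total counts alone. ALAS1, the rate-limiting enzyme of haem synthesis in liver, is given here after its values were seen. Its row is a RefSeq record with a non-coding prefix (NR_029391.1). It was at 131, 224, 289, 324 and 159 CPM in the low livers and at 123, 89.5, 123, 44.3 and 121 CPM in the high livers. The groups did not overlap, which held with the high group below the low group for 0.328% of the tested sequences. The log2 fold change was -1.17 (SE 0.35, unadjusted p = 0.00443, edgeR adjusted p = 0.9998), and the exact permutation p was 0.00794. With scaling by total counts alone the ALAS1 groups overlapped too, with an exact permutation p of 0.0476. In the testes the direction was the opposite, with an ALAS1 log2 fold change of 0.69 (SE 0.44, edgeR adjusted p = 0.634). ALB, as the hepatocyte reference, was at 93418 ± 40633 and 84185 ± 29295 CPM in the low and high livers (log2 fold change -0.15, SE 0.43). All 5 hepatocyte markers had a negative log2 fold change in the high livers, with a median of -0.18, and none was called.

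**Figure D5:**
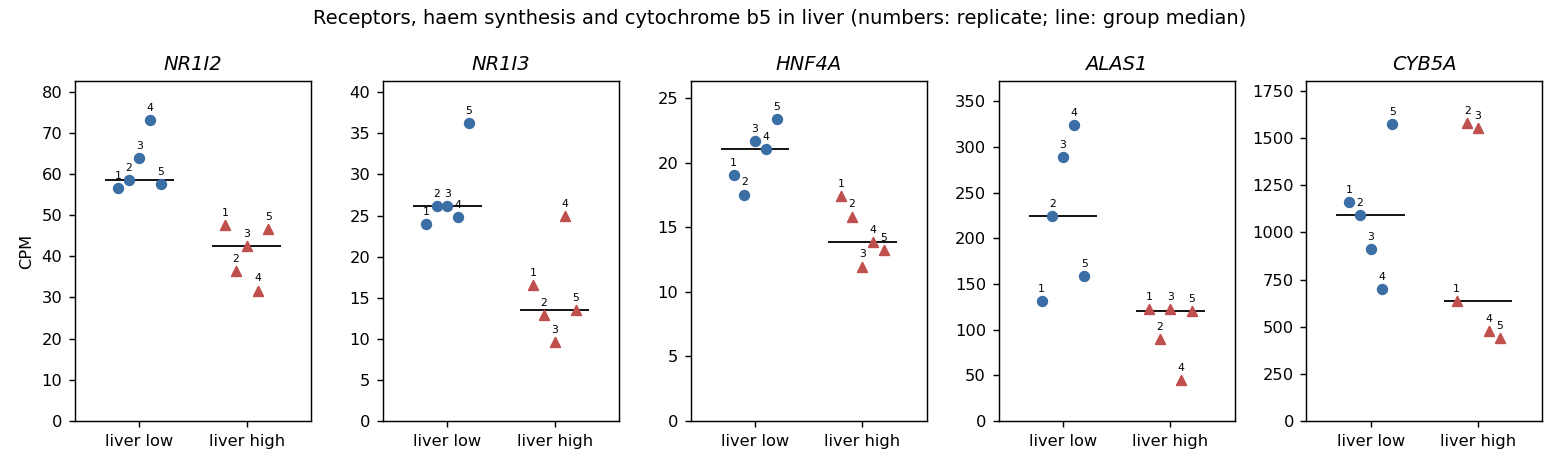
CPM of NR1I2, NR1I3, HNF4A, ALAS1 and CYB5A in the 10 livers on linear axes from 0, each gene on its own scale, with low androstenone as circles, high androstenone as triangles, replicate numbers above the points and a line at the group median. The groups do not overlap for NR1I2, HNF4A and ALAS1 under TMM scaling, overlap for NR1I3 and CYB5A, and none of the 5 genes was called.

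Of 21 other P450 genes of families 1 to 3, 5 matched a reference sequence by symbol, CYP1A1, CYP1A2, CYP2A19, CYP2C42 and CYP2E1. All 5 were called higher in liver than in testis, with a median log2 difference of 8.59. In the high livers all 5 had a negative log2 fold change with a median of -0.22, from -0.73 for CYP2A19 to -0.083 for CYP2C42, and none was called or had an unadjusted p under 0.05. This stands beside the median of -0.18 of the 5 hepatocyte markers, all 5 of them also negative, and the part of one in the other was not tested. With scaling by total counts alone the medians were -0.52 for these P450 genes and -0.20 for the markers. In testis 4 were tested, 0 were called and the median was -0.13. Of 21 conjugating enzymes, 5 matched a reference sequence by symbol, and all 5 were called higher in liver with a median log2 difference of 3.78. Between high and low androstenone 0 of these 5 were called in either tissue, with medians of -0.22 in liver and 0.41 in testis.

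The identity of the 2 CYP2C members carries a limit. RefSeq lists a neighbouring gene, LOC100739741, under the synonym CYP2C33, and no row of its own was found for it in the counts. CYP2C42, which has a row, lies near CYP2C49 in the same assembly. Reads from near-identical sequences may have been assigned to either copy, so the CYP2C33 and CYP2C49 values are uncertain in that respect. CYP2B22 and CYP2D25 also have unnamed neighbouring loci for which no row was matched.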

How the data were processed

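Total RNA of testis and liver from 10 boars was converted to cDNA with a SMART kit and sequenced as single 100 bp reads, 1 lane per sample. The authors processed reads with CASAVA 1.7, aligned them with BWA to RefSeq mRNA and UniGene sequences of Sscrofa 9.2, used SAMtools, and deposited raw counts per reference ID. How reads fitting several sequences were counted is not given in the sources used here, so values of near-identical genes are uncertain. Of 21785 lines, 10 IDs appeared 4 times each with equal counts and entered once. Symbols came from a RefSeq gene table (Sscrofa 11.1, names and neighbours only) and matched 6654 of 21755 IDs. A listed gene whose symbol matched no ID may still have a sequence under an unmatched ID.

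IDs with at least 10 counts summed were tested with edgeR 4.0.16 in R 4.3.3 (TMM, quasi-likelihood test, Benjamini-Hochberg over all IDs), within each tissue or, for tissue and interaction, over all 20 samples with 4 group means. A call required an adjusted p under 0.05 and a fold of at least 1.5. Standard errors are the log2 difference over the square root of F. For single genes, log2(CPM + 0.5) was compared by a two-sided exact permutation test, and correlations had 100000 permutations. Alternatives included DESeq2 1.42.0, other scalings, filters and dispersions, a replicate block and leaving out each sample. The fits were tested on simulated data, in which only IDs with a mean of at least 10 counts were changed. CYP2B22 and CYP2C33 in testis lie below that mean, so the simulation does not cover them. Python 3.11.15, numpy 2.4.6, scipy 1.17.1, pandas 2.3.3 and matplotlib 3.10.9 were used.

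The members, gene lists and tests were chosen with earlier results of these data known. Named genes were all resolved members, POR, CYB5A, NR1I2, NR1I3, HNF4A and ALB, and any list gene called between androstenone groups, of which there were 0. The samples of a group are separate boars. The labels do not say that equal replicate numbers in testis and liver are the same boar, and the counts did not show it for every number, so tissues were compared without pairing.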

Additional observations from a re-analysis of the deposited data

Results flagged for a closer look

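CYP2D25 in the testis labelled low replicate 2 was at 77.5 CPM, while the other 4 low testes held between 191 and 215 CPM. Its gap to the nearest sample was 0.829 of the range of the group, above Dixon's critical value of 0.710 for 5 samples. It was the single value of this kind among the 16 groups of members examined. Chance flags about 1 in 20 groups, so 1 among 16 is close to the share that chance gives. Its removal moved the log2 fold change in testis from -0.36 to -0.54, and the edgeR adjusted p was then 0.670.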

How the results depend on the processing

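The liver against testis calls of the 4 members were kept under all alternatives tried, including scaling by total counts alone, which was chosen after the data were seen, reduced each fold by about a factor of 2 and turned CYB5A between the tissues from 0.53 to -0.52. The number of sequences called between androstenone groups in testis, 0 by the quasi-likelihood test, was 52 with DESeq2, 225 with the trended dispersion alone and between 0 and 2 with each sample left out. In liver it was 45 with the trended dispersion, and for the interaction 2 with DESeq2 and 46 with the trended dispersion. With the trended dispersion CYP2B22 and CYP2C33 in testis were called (adjusted p = 0.00539 and 0.0167). DESeq2 gave them unadjusted p-values of 7.63e-04 and 0.00258. Run with its default settings, it left them out of its adjustment, so it could not call them. The cause of the differences in the number of calls was not tested. With each sample left out, signs turned in liver for CYP2C33 (-0.029 to 0.79), CYP2C49 (-0.87 to 0.093) and ALB (-0.30 to 0.13), in testis for NR1I3 (-0.17 to 0.65) and HNF4A (-0.095 to 0.39), and in the interaction for CYP2D25 (-0.38 to 0.077), none of them called. The replicate number as a block left 0 calls in testis, 0 in liver and 0 in the interaction, gave 14201 between tissues in place of 14436, and changed no call of a member, with CYP2B22 in liver at -1.41 in place of -0.49. Same-numbered testis and liver samples correlated between -0.0556 and 0.464. Of these 10 correlations 7 were over 0.1, and 4 of 10 samples correlated best with their own number, which is a hint from the data and not the design. The means with other numbers were all below 0. They tended to be lower where the same-number correlation was higher, so they add nothing separate to that hint. Since not all 10 same-number correlations were over 0.1, the numbers were not taken as pairs. Levels were not ordered by transcript length. Depth limits CYP2B22 and CYP2C33 in testis, where several samples had 3 counts or fewer.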

Other observations

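The sequences most alike in rank to CYP2C33, CYP2C49 and CYP2D25 over the 10 livers were listed as a description, among 2118 sequences with a symbol and a mean of at least 10 CPM, which share library and depth. The P450 members themselves were left out of the ranking. CYP2B22 was ranked as well, but its list is not given because 2 livers stood apart in it. For CYP2C33 they were UAP1 (Spearman 0.988), DDX55 (0.976) and CLDN4 (0.964). For CYP2C49 they were C3 (0.794), BCO2 (0.782) and SERBP1 (0.770), all below the 0.842 of CYP2D25, and for CYP2D25 RNF167 (0.891), ACADS (0.891) and SERPIND1 (0.867).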
